A study of Mus musculus with 10 samples.

Results

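The genes described here are 10 imprinted genes of fetal growth, Mest, Igf2, H19, Dlk1, Meg3, Peg3, Plagl1, Cdkn1c, Grb10 and Igf2r, measured in the adult mouse left atrium after pressure overload. They were taken by symbol from a named list, and all 10 were found among the 48397 gene symbols of the count tables. The list had been selected on earlier results of these libraries, their CPM in sham and in TAC, so the values of its members in the comparison of surgery groups are given as a description, with no p-value. Whether a member lay past the threshold used for all genes is stated in the same sense, and supports nothing. Their gene loci, in the mouse build GRCm38, lie on chromosomes 6, 7, 10, 11, 12 and 17.

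Imprinted genes are transcribed mainly from the copy inherited from one parent, under DNA methylation marks set in the egg or the sperm. Many of them tune growth before birth. Several that promote it, such as Igf2, are active on the paternal copy, and several that restrain it, such as Cdkn1c, Grb10 and Igf2r, are active on the maternal copy in most mouse tissues. Many are more abundant in the fetus than in the adult, and they often sit in clusters in which a long noncoding RNA is often transcribed from the opposite parental copy. The counts do not separate the parental copies, so every value below is the sum over both.

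Both groups were wild-type C57BL/6J male mice that had surgery at 2 months of age. One group had transverse aortic constriction (TAC), a narrowing of the aortic arch that makes the left heart pump against a higher pressure, and the other had a sham operation. Left atrium was taken 2 weeks later, and RNA was sequenced in bulk from 5 sham and 5 TAC libraries, with no genetic change in either group. The sample labels name the left atrium and a low-input Nugen Trio kit, whereas the design text names the left appendage and a TruSeq kit, and the sources leave unsettled which applies. No label states that each library is a separate animal, so p-values measure the spread between these samples, which may in part be technical.

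Libraries held between 17117306 and 43956384 counts over all genes, the lowest being sham replicates 1 and 2. Abundance is given as CPM, a gene's counts relative to its library's total after scaling with trimmed-mean (TMM) factors, which centre the comparison on the bulk of the genes. Cardiomyocyte markers, which include the atrial genes Myl7 and Sln, were summed per library. Their summed level was 71579.6 to 85154 CPM in sham and 29771 to 41714 CPM in TAC (exact 2-sided permutation p = 0.00794, the smallest that 5 against 5 allows, and 0.0136 adjusted over 12 marker lists). All 8 of these markers were lower in TAC by edgeR. Over the same libraries the sum of 9 fibroblast markers was 3661 to 5192 CPM in sham and 5482 to 10545 CPM in TAC, that of 7 cycling-cell markers 2.51 to 19.9 and 128 to 441 CPM, and that of 7 macrophage markers 256 to 463 and 667 to 1142 CPM (adjusted exact permutation p = 0.0136 for each). All 7 cycling-cell and all 7 macrophage markers were higher by edgeR. Of the 9 fibroblast markers, 6 were higher and 1, Gsn, was lower. Gsn made up most of the fibroblast sum in sham, with a mean of 3264 of 4487 CPM, and was 1000 CPM in TAC. In bulk tissue, fewer cells of a type and less RNA per cell cannot be told apart, and the part of cell makeup in any value below was not tested.

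The 4 microRNAs whose hairpins lie within Mest and H19 are shown because they are small RNA products of the member that rose most in TAC and of the member that, among the 9 tested, varied most between sham libraries. RefSeq places the Mest pair at chr6:30741314-30741336 and chr6:30741354-30741375 on the plus strand, and the H19 pair at chr7:142577112-142577133 and chr7:142577078-142577099 on the minus strand, each on its host's strand in GRCm38.p6. Capitals mark the seed, bases 2 to 8, which pairs with target RNAs.
mmu-miR-335-5p (Mest): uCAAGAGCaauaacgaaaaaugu
mmu-miR-335-3p (Mest): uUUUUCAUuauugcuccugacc
mmu-miR-675-5p (H19): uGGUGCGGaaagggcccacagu
mmu-miR-675-3p (H19): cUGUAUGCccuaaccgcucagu
No seed is shared among these 4. Libraries of long RNA do not capture mature microRNAs, whose levels were not analysed here. The tables' own entry for the Mir335 hairpin held 1 read in each of sham replicates 4 and 5 and 0 in the other 8 libraries, and the entry for Mir675 held 0 in all 10.

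Promoter windows are shown for the pair of members whose sham and TAC values did not overlap, Mest and Grb10, and for Plagl1, whose values did. Each is 300 bases long, from 250 bases before a RefSeq transcript start to 50 after it, written along the gene's strand in GRCm38.p6. Capitals mark TGCCGC, the core motif of ZFP57, a zinc-finger protein that binds it when methylated and protects imprints, or its reverse complement GCGGCA.
Mest, chr6:30737800-30738099, plus strand: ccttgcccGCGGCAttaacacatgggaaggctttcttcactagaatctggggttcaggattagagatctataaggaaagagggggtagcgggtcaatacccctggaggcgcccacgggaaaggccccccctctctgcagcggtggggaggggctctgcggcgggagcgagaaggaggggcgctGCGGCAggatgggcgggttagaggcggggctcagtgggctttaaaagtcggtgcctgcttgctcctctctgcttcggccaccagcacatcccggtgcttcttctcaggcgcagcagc
Grb10, chr11:12037371-12037670, minus strand: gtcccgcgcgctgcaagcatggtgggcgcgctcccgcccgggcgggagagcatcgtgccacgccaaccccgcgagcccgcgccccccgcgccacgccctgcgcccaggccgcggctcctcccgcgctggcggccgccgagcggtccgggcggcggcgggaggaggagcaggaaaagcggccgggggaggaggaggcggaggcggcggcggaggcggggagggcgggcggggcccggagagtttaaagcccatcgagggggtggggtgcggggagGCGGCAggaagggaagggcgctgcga
Plagl1, chr10:13090582-13090881, plus strand: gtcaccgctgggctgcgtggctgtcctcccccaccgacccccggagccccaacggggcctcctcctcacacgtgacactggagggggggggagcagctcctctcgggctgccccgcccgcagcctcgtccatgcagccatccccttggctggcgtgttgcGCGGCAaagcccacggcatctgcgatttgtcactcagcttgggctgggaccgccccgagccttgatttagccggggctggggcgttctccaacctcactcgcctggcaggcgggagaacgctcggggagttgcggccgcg
The Mest window holds 2 matches and 17 CpG sites, the Grb10 window 1 match and 45 CpG sites, and the Plagl1 window 1 match and 26 CpG sites. Mest and Grb10 each have another window without the motif, with 8 CpG sites at chr6:30733256-30733555 and 9 CpG sites at chr11:12027922-12028221. RefSeq windows were at hand for 8 of the 10 members, those of H19 and Cdkn1c being the exceptions. Of the 15 windows of these 8 members, 6 held the motif on either strand, and they belonged to 5 genes, Mest, Igf2, Plagl1, Grb10 and Meg3. Those of Mest are 2 windows that start 3 bases apart and hold the same matches. Among all 32851 promoter windows of that length, 11.6% held it. CpG sites per member window ran from 1 to 45, against a median of 7 over all windows. These matches describe the sequence and say nothing of binding or methylation in these atria, which were not measured.

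Of the 10 members, 9 passed the filter on low counts, and Dlk1 did not. Mest, Grb10 and Igf2r were higher in TAC at an adjusted p of 0.05 (edgeR quasi-likelihood test, Benjamini-Hochberg adjustment over 15175 genes) and none was lower, while 28.9% of all genes tested were higher, 27.9% lower and 56.8% changed in either direction at the same threshold. Because the members were chosen with this comparison in view, nothing is read from that count, which was 2 to 4 when any 1 library was left out. The groups did not overlap for Mest and Grb10, both higher in TAC, and 21.5% of all genes tested were higher and 20.2% lower without overlap. The median log2 fold change was 0.63 over the 9 members tested, the value of Igf2, and 0.01 over all genes. For the same reason nothing is read from that difference.

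**Figure D1:**
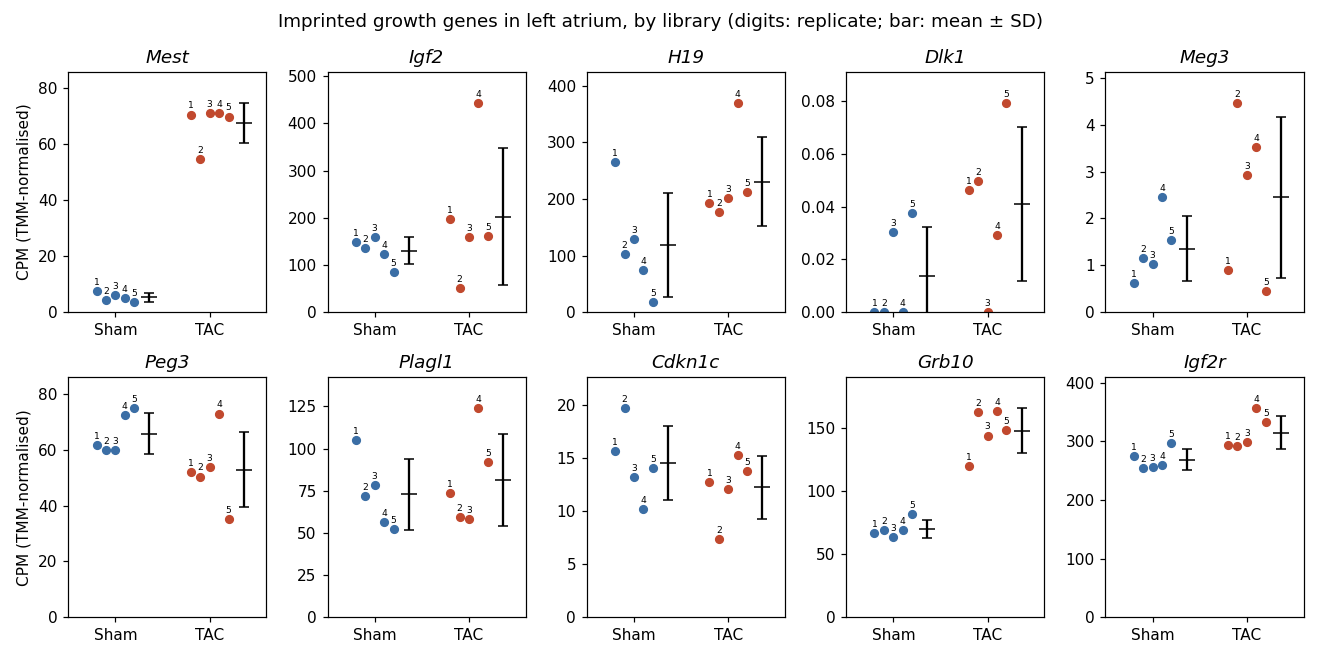
CPM (vertical axis, linear and starting at 0) of the 10 members in the 5 sham and 5 TAC libraries; digits give the replicate number, bars the group mean and its SD. Mest lies between 54.6 and 70.9 CPM in every TAC library and at or below 7.57 CPM in every sham library, Grb10 is also separated, and H19 and Igf2 spread widely within a group.

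Mest, also called Peg1, is transcribed from the paternal copy and encodes a membrane enzyme of the alpha/beta-hydrolase fold that is abundant in fetal mesoderm. It spans chr6:30723547-30748465 on the plus strand. The sham libraries, replicates 1 to 5, held 7.57, 4.28, 6.02, 5.05 and 3.56 CPM. The TAC libraries held 70.4, 54.6, 70.9, 70.9 and 69.7 CPM. Every TAC library was therefore several times above the highest sham library, and TAC replicate 2 was the lowest of its group. The means were 5.30 ± 1.56 and 67.3 ± 7.12 CPM (SD, n = 5 each), a 12.7-fold ratio, and the log2 fold change was 3.67 ± 0.18 (SE). Mest thus rose more than any other member tested. Of its exon bases, 23.1% are also exon bases of Copg2 on the opposite strand, and the counting is not stated to use strand. Copg2, which encodes a coat protein of transport vesicles, held 55.5 ± 2.47 CPM in sham and 58.2 ± 3.03 CPM in TAC (log2 fold change 0.07 ± 0.06, adjusted p = 0.361 by edgeR). Under scaling by library size Copg2 passed as higher (0.43), as Mest did (4.03).

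Igf2 encodes the fetal growth factor IGF2, which acts through the IGF1 and insulin receptors, and is transcribed from the paternal copy at chr7:142650766-142666816 on the minus strand. It held 148, 137, 159, 124 and 85.1 CPM in sham replicates 1 to 5. In TAC it held 197, 51.7, 159, 443 and 162 CPM. TAC replicate 4 was the highest of all 10 libraries and TAC replicate 2 the lowest, so that the TAC range enclosed the whole sham range. The means were 131 ± 28.7 and 203 ± 145 CPM, with a log2 fold change of 0.63 ± 0.43, and the gene was not past the threshold. It passed without TAC replicate 2 (0.90), and stood at 0.14 without TAC replicate 4. By annotation, 64.5% of the exon bases are shared with Gm49394 and Igf2os. Gm49394, however, has no entry in the count tables, and Igf2os, on the other strand, shares 23.2% of its own exon bases. How far such overlap limits the Igf2 value was not tested.

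H19 is the maternally transcribed noncoding RNA that shares enhancers with Igf2 and carries the miR-675 hairpin shown above. It lies at chr7:142575529-142578143 on the minus strand. Sham replicates 1 to 5 held 265, 103, 129.96, 74.9 and 18.0 CPM, a 14.7-fold span within a group. TAC replicates held 193, 177, 202, 369 and 212 CPM. Sham replicate 1 exceeded all TAC libraries but replicate 4, while the other 4 sham libraries lay below every TAC library. The means were 118 ± 92.1 and 231 ± 78.6 CPM, with a log2 fold change of 0.97 ± 0.53 that did not pass. Leaving out sham replicate 1 moved it to 1.50, and leaving out both shallow sham libraries, replicates 1 and 2, moved it to 1.63, each past the threshold. Without sham replicate 5 it was 0.68.

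The balance of Igf2 and H19 varied widely from library to library. The ratio of H19 to Igf2 counts ran from 0.212 to 1.79 in sham (median 0.755) and from 0.834 to 3.42 in TAC (median 1.27). TAC replicate 2, the library lowest in Igf2, had the highest ratio. The ratio of Mest to Igf2 counts was 0.0313 to 0.0510 in sham and 0.160 to 1.06 in TAC. Mest alone did not overlap between groups, as given above, whereas Igf2 did. The separation of this ratio therefore follows from Mest and adds nothing to its values.

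Igf2r encodes the cation-independent mannose 6-phosphate receptor, which carries IGF2 to the lysosome for degradation. It spans chr17:12682406-12769664 on the minus strand. It held 275, 255, 256, 260 and 298 CPM in sham replicates 1 to 5 and 294, 292, 298, 356 and 333 CPM in TAC. Sham replicate 5 reached the level of the lower TAC libraries, and the groups overlapped. The means were 269 ± 18.1 and 315 ± 28.4 CPM, and the gene rose by a log2 fold change of 0.23 ± 0.08. That change was small. The 21 alternative analyses used, for example, other scalings, filters and left-out libraries, and gave 0.20 to 0.59. In 8 of them the gene was no longer past the threshold, though no other scaling or filter was among these. They were the fit with replicate number as a block, that without both shallow sham libraries, and those without sham replicate 1, 2, 3 or 4 or TAC replicate 4 or 5. With any 1 library left out the change was 0.20 to 0.27, so the call, more than the size, depended on the libraries used. Counts of Igf2 per count of Igf2r ran from 0.286 to 0.622 in sham and from 0.177 to 1.24 in TAC.

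Grb10 encodes an adaptor protein that binds the activated insulin and IGF1 receptors and dampens their signal. Its gene spans chr11:11930508-12038683 on the minus strand and shares no exon bases with another gene. Sham replicates 1 to 5 held 66.9, 69.1, 64.0, 69.2 and 82.0 CPM, and TAC replicates 120, 163, 144, 164 and 149 CPM. The lowest TAC library was well above the highest sham library. Grb10 rose 2.11-fold, from 70.2 ± 6.92 to 148 ± 17.8 CPM (log2 fold change 1.07 ± 0.10). Over 21 alternative analyses its log2 fold change ran from 1.04 to 1.44, and that of Mest from 3.55 to 4.03.

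Cdkn1c encodes p57, an inhibitor of the cyclin-dependent kinases that drive entry into S phase, and is transcribed from the maternal copy at chr7:143458339-143461050 on the minus strand. It held 15.7, 19.7, 13.3, 10.2 and 14.0 CPM in sham and 12.7, 7.37, 12.05, 15.3 and 13.8 CPM in TAC. The ranges overlapped broadly, and TAC replicate 2 was the lowest. The log2 fold change was -0.24 ± 0.20, not past the threshold. It was -0.09 without TAC replicate 2, -0.35 without sham replicate 4 and 0.11 under scaling by library size. With Gm44732 on the other strand it shares 30.7% of its exon bases.

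Plagl1, a paternally transcribed zinc-finger gene whose product regulates other imprinted genes, spans chr10:13060504-13131694 on the plus strand. It held 105, 71.7, 78.7, 56.6 and 52.3 CPM in sham and 73.6, 59.3, 58.5, 124 and 91.8 CPM in TAC. Its highest values were in TAC replicate 4 and sham replicate 1, and the log2 fold change was 0.16 ± 0.24. Peg3, the paternally transcribed zinc-finger gene at chr7:6703892-6730431 on the minus strand, held 61.7, 60.0, 59.8, 72.5 and 74.7 CPM in sham and 52.0, 50.4, 53.9, 72.9 and 35.2 CPM in TAC. In 4 of 5 TAC libraries it was below every sham library, and TAC replicate 4 was among the highest of all 10. Its log2 fold change of -0.32 ± 0.16 did not pass. Without TAC replicate 4 it passed (-0.44), and under scaling by library size it was 0.047.

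Dlk1, which encodes a transmembrane relative of Notch ligands, is the paternally transcribed protein-coding gene of its cluster and spans chr12:109452823-109463336 on the plus strand. It held 0, 0, 1, 0 and 1 counts in sham and 2, 2, 0, 1 and 3 counts in TAC. At 2 and 8 counts per group it was at the edge of detection, and no fold change is given. Meg3, the maternally transcribed noncoding RNA at chr12:109541001-109571726 on the plus strand, held 0.621, 1.15, 1.03, 2.45 and 1.54 CPM in sham and 0.902, 4.46, 2.93, 3.52 and 0.449 CPM in TAC. TAC replicates 1 and 5 were among the lowest of all libraries and the other 3 TAC replicates were above every sham library. Its log2 fold change was 0.81 ± 0.57, not past the threshold, and ran from 0.50 without TAC replicate 2 to 1.15 without sham replicate 4.

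Per kilobase of exon, H19 was the most abundant member in both groups, at a mean of 48.1 CPM per kb in sham and 93.8 in TAC. In sham it was followed by Igf2r (28.9), Igf2 (22.8), Plagl1 (9.32), Grb10 (7.73), Cdkn1c (7.15), Peg3 (4.94), Mest (1.34), Meg3 (0.0751) and Dlk1 (0.0024). The library ranges of Igf2 and Plagl1 did not overlap, nor did those of Peg3 and Mest, Mest and Meg3, and Meg3 and Dlk1, whereas the other neighbours overlapped. In TAC, Mest stood at 17.1 CPM per kb, beside Grb10 at 16.3, below Igf2 (35.4) and Igf2r (33.8) and above Plagl1 (10.4), Cdkn1c (6.01) and Peg3 (3.97). There the range of Igf2r lay above that of Mest, Peg3 above Meg3 (0.136) and Meg3 above Dlk1 (0.00723), and all other neighbours overlapped. The spread within a group also differed between members. The coefficient of variation in sham was 6.74% for Igf2r and 77.8% for H19, and in TAC it was 9.04% for Igf2r and 71.6% for Igf2.

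The neighbours of the members on the same chromosomes were next compared, to show whether a member moved with the genes around it. Around Igf2, H19 and Cdkn1c on distal chromosome 7, 17 listed genes were tested, members included, of which 8 were higher (47.1%) and 3 lower (17.6%) in TAC, against 28.9% and 27.9% of all genes. The largest rise was that of Tnnt3, which encodes troponin T of fast skeletal fibres, going from 1.29 ± 0.611 to 142 ± 79.7 CPM (log2 fold change 6.76 ± 0.57, adjusted p = 5.83e-06 by edgeR). A list of 9 skeletal muscle markers, with Pax7 and Myod1 at 0 counts in all libraries, summed to 7.48 to 20.5 CPM in sham and 124 to 482 CPM in TAC. That list holds Tnnt3 itself, so its sum is not separate from the Tnnt3 value. Of its mean of 277 CPM in TAC, most was Tnnt3 and Acta1 (104 CPM), while Mylpf did not pass. The part of skeletal muscle in the Tnnt3 value was not tested. Also higher were Tnfrsf23, a decoy death receptor (1.22 ± 0.16), Osbpl5, an oxysterol-binding protein (0.63 ± 0.10), and Tssc4 (0.61 ± 0.09). Kcnq1, the potassium channel of the slow delayed rectifier current, fell from 86.9 ± 5.79 to 40.2 ± 9.02 CPM (-1.11 ± 0.13, adjusted p = 2.91e-05 by edgeR), and the histone chaperone gene Nap1l4 (-0.68 ± 0.09) and the mitochondrial ribosomal gene Mrpl23 (-0.90 ± 0.13) fell too. Kcnq1ot1, the paternally transcribed noncoding RNA of the Cdkn1c domain, did not pass (2.06 ± 0.591 and 1.79 ± 0.464 CPM). Ins2 was at 0 counts in all 10 libraries, and Igf2os, with 30 counts in sham and 36 in TAC, was too low to test.

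In the Dlk1 and Meg3 cluster on chromosome 12, 6 genes were tested, members included. Of these, 2 rose, Dio3 and Rian, and 1 fell, against 28.9% and 27.9% of all genes. Dio3, the paternally expressed deiodinase that inactivates thyroid hormone, held 7 counts over the 5 sham libraries and 231 over the 5 TAC libraries (log2 fold change 4.39 ± 0.48, adjusted p = 1.82e-05 by edgeR). It was at most 0.128 CPM in sham and 0.712 to 1.84 CPM in TAC. Because it passed the filter on low counts only through its TAC libraries, its call is given as a description. Rian, a maternally transcribed noncoding RNA that follows Meg3 in the cluster, held 3.29, 5.24, 3.68, 7.06 and 5.07 CPM in sham and 12.5, 17.6, 8.02, 13.9 and 4.78 CPM in TAC. All TAC libraries but replicate 5 were above the sham range for Rian (1.21 ± 0.33, adjusted p = 0.00836 by edgeR), though with limma voom and quality weights the adjusted p was 0.0519. Mirg, further downstream, stood at 0.276 and 0.341 CPM and did not pass, and Rtl1 had 3 and 5 counts and was not tested. Wdr25, at the proximal edge, was lower (-0.31 ± 0.12, adjusted p = 0.0403 by edgeR), a call lost in 10 of 21 alternatives, among them scaling by library size, which gave the opposite sign (0.049).

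Next to Grb10, Fignl1, an AAA ATPase of DNA repair, rose from 0.800 ± 0.451 to 10.4 ± 2.19 CPM (3.74 ± 0.30), and Ikzf1, a transcription factor of lymphoid and myeloid cells, rose from 2.18 ± 0.551 to 8.05 ± 2.56 CPM (1.87 ± 0.27). Ddc, which has a form imprinted in the fetal heart, held 27 and 83 counts and did not pass (0.97 ± 0.49, adjusted p = 0.106 by edgeR). It passed without sham replicate 2 (1.44), without both shallow sham libraries (1.38) and under scaling by library size (1.34). At the Igf2r locus 4 genes were tested, Igf2r included, and 3 fell, against 27.9% of all genes. Airn, the paternally transcribed antisense RNA that silences Igf2r in cis, went from 7.49 ± 1.74 to 5.01 ± 1.17 CPM (-0.59 ± 0.19, adjusted p = 0.0203 by edgeR), a call lost without sham replicate 3 (-0.43), without TAC replicate 5 (-0.48) and under scaling by library size (-0.23). The organic cation transporter gene Slc22a3 fell from 21.3 ± 4.08 to 3.93 ± 1.75 CPM (-2.44 ± 0.26), as did Mas1, a receptor of angiotensin 1-7 (-1.83 ± 0.26). Zim1, the maternally transcribed neighbour of Peg3, fell from 4.94 ± 1.72 to 2.80 ± 0.392 CPM (-0.81 ± 0.22, adjusted p = 0.00746 by edgeR), a call lost under scaling by library size (-0.45), whereas Zfp78 rose (0.95 ± 0.19) and Usp29 did not pass. Cep41 was higher beside Mest (0.67 ± 0.15). None of the 4 genes tested at the Plagl1 locus passed, whereas 56.8% of all genes did. The most abundant of the 4 was Phactr2, at 96.8 ± 11.3 and 95.9 ± 9.30 CPM, which passed as higher under scaling by library size (0.35).

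**Figure D2:**
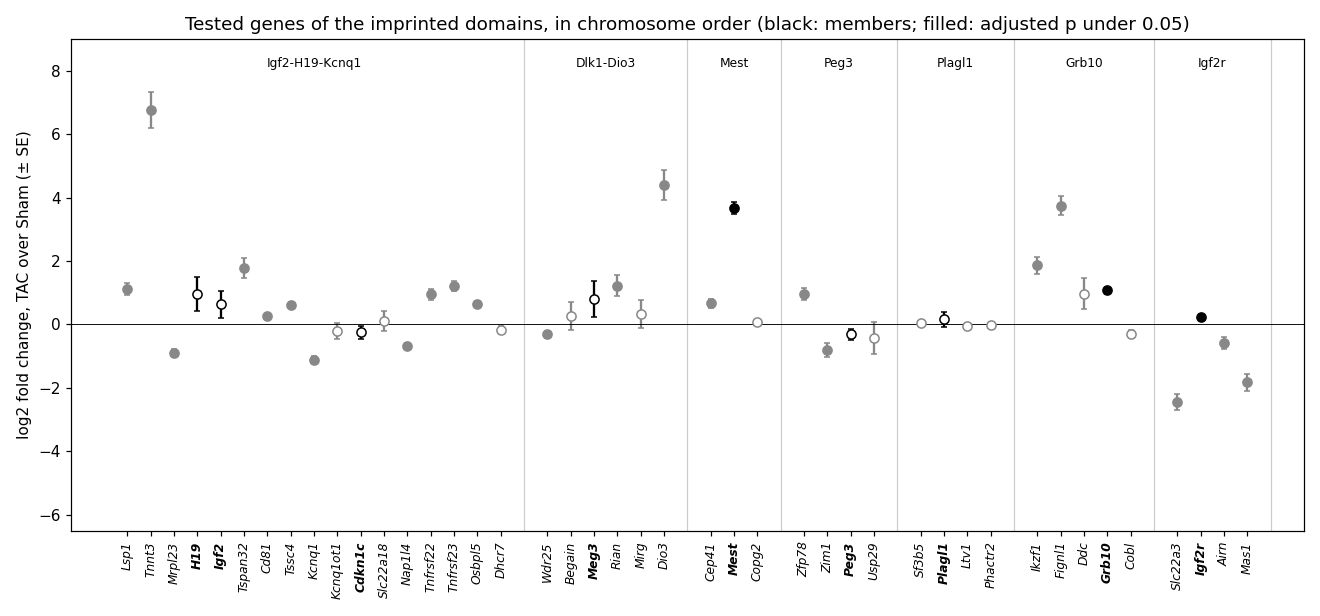
Log2 fold change of TAC over sham with its SE (vertical axis) for the tested genes, in chromosome order, of each member's chromosomal domain; black marks members, and filled points passed an adjusted p of 0.05. Genes of the same domain can point in opposite directions, as with Igf2r at 0.23 and Slc22a3 at -2.44.

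Differences between libraries of the same group were used to see which members varied together. For each gene the deviation of its log2 CPM from its group mean was taken, and Pearson's r was computed over the 10 libraries, as a description only, since all genes share the same libraries and depths. Over the 36 pairs of the 9 members tested, 19 values were positive and 17 negative, with a median of 0.25. The highest was that of Mest with H19 (0.85, and 0.75 to 0.93 when any 1 library was left out), followed by H19 with Plagl1 (0.76), Meg3 with Peg3 (0.73), Igf2 with Plagl1 (0.73) and Igf2 with Cdkn1c (0.71). Some of these rested on 1 library: Meg3 with Peg3 was 0.44 without TAC replicate 5, and Igf2 with Cdkn1c was 0.33 without TAC replicate 2. Igf2 and H19, neighbours on chromosome 7, reached 0.50 over the 10 libraries, but 0.94 within sham and 0.83 within TAC. Within groups, Mest with H19 was 0.90 in sham and 0.46 in TAC, so the order of these pairs depended on pooling the groups. Mest with Grb10 gave -0.57, the lowest value with TMM factors, but -0.33 without sham replicate 5 and -0.17 under scaling by library size, where Meg3 with Cdkn1c was lowest (-0.48).

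**Figure D3:**
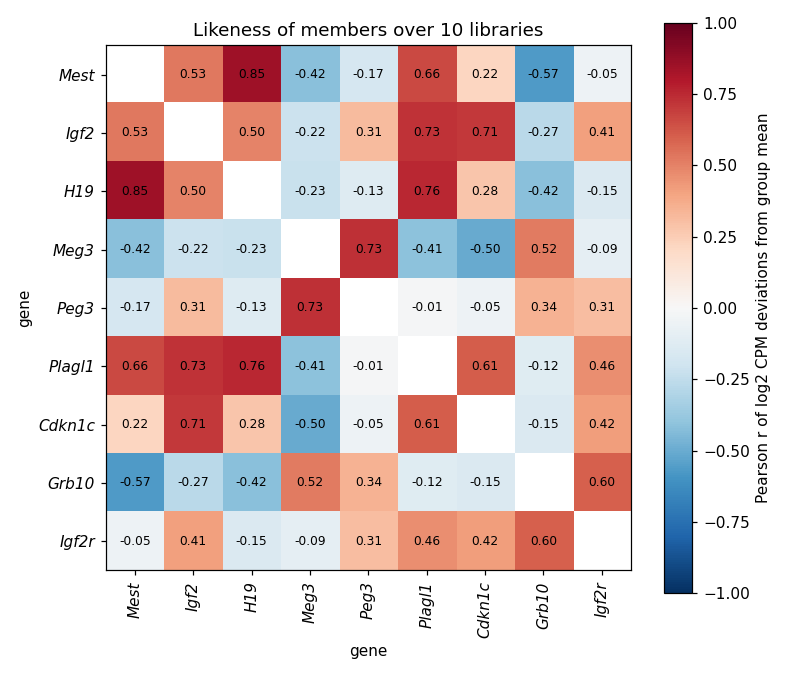
Pearson's r, on the colour scale, between the deviations of 9 members from their group means over the 10 libraries. Mest, H19 and Plagl1 form the reddest block, with Mest and H19 at 0.85, and Mest with Grb10 is at -0.57 with these TMM-scaled values (-0.17 under scaling by library size).

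The genes most like each member by that measure, among 11645 candidates, were Runx1t1, Ccnd1 and Dusp7 for Mest (r = 0.97 to 0.96), Plvap, Tspan4 and Vwf for Plagl1 (0.97 to 0.94), and Xirp2, Mex3b and Tmem183a for Grb10, with 0.97 for Xirp2. Those most like Igf2 were Chrm2, Zfp280c and Foxj3, with 0.94 for Chrm2. For H19 they were Zfp324, Zc3hav1l and Nol9, for Meg3 Zc3h7a, Foxp2 and Smg6, for Peg3 Adprm, Stxbp5 and Hsf2bp, for Cdkn1c Rdx, Mocos and Sp4, and for Igf2r Sertad2, Mfsd6 and Tmcc3. Against the summed marker lists, Plagl1 deviated with the endothelial list (0.92, and 0.90 to 0.96 with any 1 library left out) and Grb10 with the fibroblast list (0.79). Mest did so with the cycling-cell list (0.79, and 0.61 to 0.94). Meg3 had nearly equal values with the macrophage list (0.77) and the fibroblast list (0.75). The fibroblast sum was mostly Gsn in sham, as given above. Peg3 had its highest value with the list of Schwann cell and neuron markers (0.74, and 0.42 to 0.89 with any 1 library left out), as did Igf2r (0.62, and 0.21 to 0.76), and the sum of that list was 17.5 to 26.6 CPM in sham and 8.35 to 15.8 CPM in TAC (adjusted exact permutation p = 0.0136). Igf2, H19 and Cdkn1c also had their highest value with the endothelial list (0.61, 0.63 and 0.68), whose sum was 999 to 1579 CPM in sham and 1202 to 1813 CPM in TAC (adjusted exact permutation p = 0.105). With any 1 library left out, these were 0.48 to 0.72 for Igf2, 0.39 to 0.81 for H19 and 0.59 to 0.78 for Cdkn1c. The part of these cell types in the members' values was not tested.

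Imprinted genes outside the list moved in both directions. Of 75 further imprinted genes, listed like all lists here with earlier results known, 73 were in the tables and 56 were tested, of which 14 were higher (25.0%) and 22 lower (39.3%), against 28.9% and 27.9% of all genes, with a median log2 fold change of -0.27. That split depended on how libraries were scaled. Under plain library-size scaling, which moved the median of all genes from 0.01 to 0.37, 20 were higher and 10 lower. Besides Dio3, Gatm, the first enzyme of creatine synthesis, rose from 4.73 ± 1.38 to 25.6 ± 7.56 CPM (2.42 ± 0.26), and Qpct, a glutaminyl cyclase, from 9.45 ± 1.43 to 15.3 ± 0.734 CPM (0.70 ± 0.10). Peg13, a noncoding RNA within Trappc9, fell from 106 ± 11.1 to 39.1 ± 4.08 CPM (-1.45 ± 0.10, adjusted p = 1.04e-06 by edgeR), its host Trappc9 by 0.58 on the log2 scale, the chromatin gene Jade1 by 0.64 and Blcap by 0.87.

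**Figure D4:**
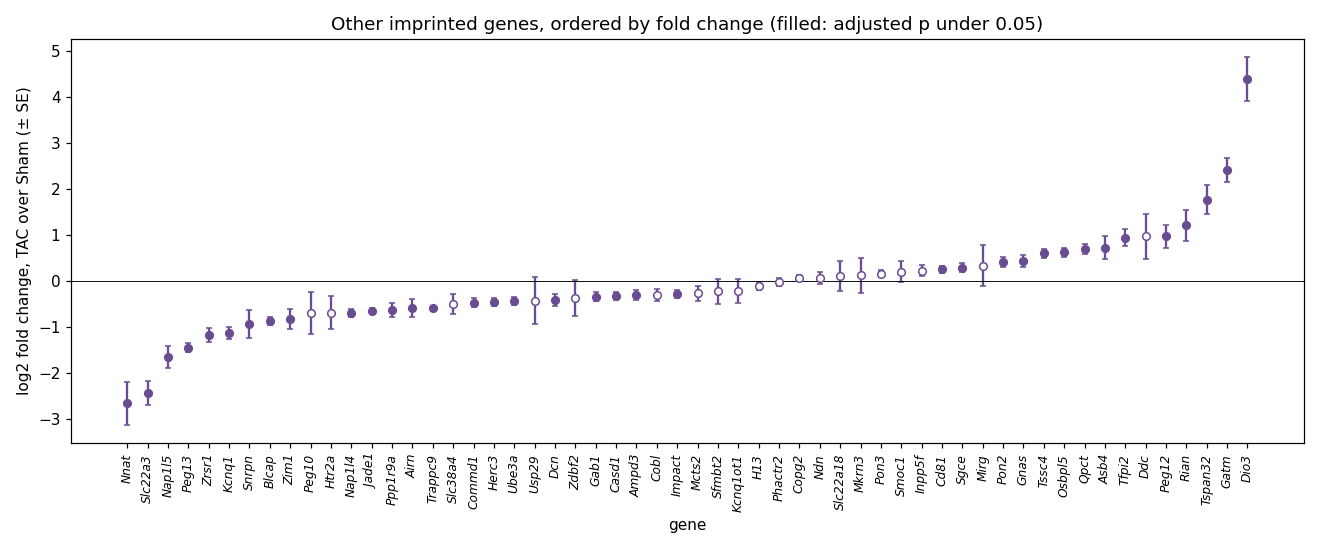
Log2 fold change of TAC over sham with its SE (vertical axis) for 56 imprinted genes outside the list, ordered by value; filled points passed an adjusted p of 0.05. Points run from low to high through 0, with 22 lower and 14 higher.

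Genes that act with the members were read from lists of the same kind. Of 24 tested partners of IGF2 and DLK1 signalling, 9 were higher (37.5%) and 7 lower (29.2%), against 28.9% and 27.9% of all genes, with a median of 0.13. The genes named here from the Igfbp family were split. Igfbp7 rose from 148 ± 19.6 to 824 ± 172 CPM (2.47 ± 0.15) and Igfbp3 from 25.8 ± 8.21 to 91.0 ± 6.73 CPM (1.82 ± 0.19), while Igfbp5 fell from 774 ± 180 to 283 ± 55.9 CPM (-1.45 ± 0.18). Igfbp2 went from 8 counts over the sham libraries to 530 over the TAC libraries (5.37 ± 0.83, 4.69 without TAC replicate 2 and 5.98 without sham replicate 5). Like Dio3, it passed the filter on low counts only through its TAC libraries. Igf2bp2, which binds Igf2 mRNA, rose to 11.02 ± 2.47 from 4.45 ± 1.18 CPM. On the receptor side, Insr fell (-0.48 ± 0.08), as did Grb14, the relative of Grb10 (-0.91 ± 0.11), and Irs2 (-2.51 ± 0.41), whose sham mean of 73.2 ± 54.7 CPM included 167 CPM in replicate 5. The Insr call was lost under scaling by library size (-0.12).

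Among 18 tested genes of imprint maintenance and chromatin, 9 were higher (50%) and 4 lower (22.2%), against 28.9% and 27.9% of all genes, with a median of 0.42. Dnmt1, the maintenance DNA methyltransferase, rose from 31.9 ± 1.55 to 56.7 ± 3.89 CPM (0.83 ± 0.07), and its partner Uhrf1 from 1.41 ± 0.971 to 20.4 ± 4.28 CPM (3.89 ± 0.34). The histone methyltransferase genes Ezh2 (2.06 ± 0.19) and Ehmt2 (0.77 ± 0.10) were also higher. Zfp445, which protects imprints, was lower (-0.44 ± 0.13, adjusted p = 0.0124 by edgeR), a call lost under scaling by library size (-0.08). Ctcf (-0.20), which binds the control region of Igf2 and H19, Mbd3 (-0.22) and Smchd1 (-0.20) were lower by small amounts that were lost in several alternatives and had the opposite sign under scaling by library size (0.16, 0.14 and 0.17).

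Cyclins, kinases and regulators of S-phase entry, on which p57 acts, were read from a list that also holds the related inhibitors Cdkn1a and Cdkn1b. Of its 13 genes, all tested, 11 were higher by edgeR, with a median of 0.99, against the 28.9% of all genes that were higher. E2f1, an S-phase transcription factor, rose from 1.05 ± 0.675 to 29.9 ± 10.6 CPM (4.92 ± 0.38), Ccne1, cyclin E1, from 1.99 ± 0.514 to 13.7 ± 3.27 CPM (2.79 ± 0.22), Ccne2 by 2.34 ± 0.22 and Cdk4 by 0.62 ± 0.06. Of 15 listed genes of fetal growth that are not imprinted, 6 did not pass the filter on low counts. Among the 9 tested, 7 were higher (77.8%) by edgeR, against 28.9% of all genes, with a median of 1.34. They included Sox4 (9.19 ± 2.80 to 38.1 ± 12.3 CPM) and Sox11 (4 counts in sham, all in replicate 5, and 156 in TAC). Sox11 passed that filter only through its TAC libraries, so the share of this list is given as a description. The cycling-cell markers given above rose in the same libraries, and their part in these counts was not tested.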

How the data were processed

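RNA was measured in 5 sham and 5 TAC libraries of mouse left atrium, grouped by their titles. The values the authors deposited are raw counts per gene symbol, 1 table per library, without normalization. STAR, bcl2fastq and the build mm10 are named, without versions, per the submitters' processing notes. For the read counter, the strand setting and the annotation, the tool or choice is not given in the sources used here. The 5 tallies that name no gene, 25.9% to 29.1% of all tallied reads, stayed out of library sizes and tests. No library was a copy of another: for every pair within a group, a chi-square statistic of the counts was at least 18.9 per gene. Depth, 17117306 to 43956384 counts per library, leaves genes such as Dlk1 and Rtl1 at a few counts.

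Counts were fitted with edgeR 4.0.16 in R 4.3.3 on all 10 libraries with TMM factors, filterByExpr and robust quasi-likelihood F tests, which left 15175 genes, and p-values were adjusted over all of them by Benjamini-Hochberg with a threshold of 0.05. The SE of a log2 fold change was obtained from F, as the absolute change over sqrt(F). CPM are over TMM-scaled library sizes, and group means are given with the SD over 5 libraries. Correlations used log2 CPM with a prior count of 2. Marker sums were compared by an exact 2-sided permutation test over the 252 regroupings of 5 against 5, adjusted over 12 lists. Coordinates and exon lengths came from GENCODE M21 on GRCm38, whose symbols matched 95.7% of the tables' symbols, and sequences from RefSeq on GRCm38.p6. Tables and figures used Python 3.11.15, pandas 2.3.3, numpy 2.4.6 and matplotlib 3.10.9. The fit was tested on simulated data.

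The members and all gene lists were chosen with earlier results of these data known. Named were all members, the reciprocal transcripts of their domains, up to 4 genes per direction and list with the smallest adjusted p (the most abundant tested gene where none passed), and for each member the 3 genes with the highest correlation of deviations among genes averaging log2 CPM 1 or more. Alternatives were DESeq2 1.42.0, limma 3.58.1 voom, other scalings and filters, non-robust estimation, a replicate block, mitochondrial genes left out and each library left out. A further alternative, without the pair of shallow sham libraries, was added after seeing the data. A result on 1 listed gene is not reported here.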

Additional observations from a re-analysis of the deposited data

Results flagged for a closer look

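In 14 of 128 groups of 5 libraries checked, 1 library lay apart from the other 4, the gap to its nearest neighbour exceeding 0.71 of the group's range; chance gives about 1 in 20. Of the members, Mest was 54.6 CPM in TAC replicate 2 and 69.7 to 70.9 CPM in the other TAC libraries, H19 was 369 CPM in TAC replicate 4 against 177 to 212 CPM, and Grb10 was 82.0 CPM in sham replicate 5 against 64.0 to 69.2 CPM.

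Sham replicate 3 stood apart for neighbours of 2 members, with Airn at 10.5 CPM (others 6.27 to 7.19), Slc22a3 at 28.3 CPM (others 18.4 to 21.2) and Phactr2 at 117 CPM (others 89.8 to 93.6), and also for Mbd3 at 97.4 CPM (others 85.6 to 88.9). TAC replicate 2 stood apart for Igfbp7 at 1123 CPM (others 695 to 795) and Jade1 at 29.7 CPM (others 33.4 to 34.4). TAC replicate 1 did so for Grb14 at 103 CPM (others 74.5 to 76.7) and Blcap at 31.4 CPM (others 23.2 to 25.3). In sham, Irs2 was 167 CPM in replicate 5 (others 29.7 to 64.9), Sox11 was 0.150 CPM in replicate 5 and 0 in the others, and E2f1 was 2.23 CPM in replicate 1 (others 0.525 to 0.876).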

How the results depend on the processing

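Over 21 alternatives and 61 named genes, 1199 of 1274 log2 fold changes kept their direction and side of the threshold, 51 no longer passed, 8 newly passed and 16 changed sign. Scaling by library size alone gave 7741 genes higher and 1929 lower of 15175, against 4383 and 4233. It turned Peg3 to 0.047, Cdkn1c to 0.11, Kcnq1ot1 to 0.15, Wdr25 to 0.049, Phactr2 to 0.35 (past the threshold), Ctcf to 0.16, Mbd3 to 0.14 and Smchd1 to 0.17, and left 10 further imprinted genes lower instead of 22. Phactr2 was 0.036 with upper-quartile factors, 0.0052 without a filter and 0.0085 with limma voom, against -0.01. With any 1 library left out it was -0.057 to 0.059, positive without sham replicate 3 or TAC replicate 1, 2 or 3, and Plagl1 was -0.022 (without TAC replicate 4) to 0.33 (without sham replicate 1). With any 1 library left out, 2 to 4 members were higher and 0 to 1 lower, the 1 being Peg3 without TAC replicate 4, and 13 to 15 further imprinted genes were higher and 20 to 22 lower. With the replicate number as a block, 2 members were higher (Igf2r no longer passed, at 0.23) and 0 lower, and 14 and 22 further imprinted genes were higher and lower. That block does not pair the samples: deviations of same-numbered libraries correlated between -0.036 and 0.080, and 1 of 5 numbers, replicate 3, had its best partner in its own number. The cause of these changes was not tested.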

Other observations

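Among the further imprinted genes, 5 lie within another listed imprinted gene, and in 4 of these 5 pairs both genes were lower in TAC by edgeR. Of all genes tested, taken singly and not as pairs, 27.9% were lower, and no share over all nested pairs was computed. Under scaling by library size the further imprinted genes that were lower numbered 10 instead of 22. These pairs were singled out after their values were seen. Peg13 (chr15:72805600-72810324 in GRCm38) within Trappc9 stood at -1.45 and its host at -0.58. Nnat (chr2:157560078-157562522), a paternally expressed proteolipid gene within Blcap on the other strand, stood at -2.66 and its host at -0.87. Zrsr1 (chr11:22972005-22976496) within Commd1 stood at -1.16 and its host at -0.46, and Nap1l5 (chr6:58905233-58907076) within Herc3 at -1.65 and its host at -0.45. In the remaining pair, Mcts2 within H13, neither passed (-0.26 and -0.10). Zrsr1 shares 9.2% of its exon bases with Commd1 on the other strand, Nnat shares 4.8% with Gm23134 and none with Blcap, and the other 3 inner genes share none. These pairs share libraries and scaling, and no relation within them was tested.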
